A study of Mus musculus with 15 samples.

Results

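The comparison described here is that of E6.1, the clone labelled CRISPR E6 clone 1, with the A20 parental line it was made from. A20 is a B-cell lymphoma line of BALB/c mice. The study edited *Foxp1* in A20 cells with CRISPR/Cas9 and sequenced RNA from the parental line and from 4 clones, in 15 libraries, 3 of each line. E6.1 was cut in exon 6 of *Foxp1* and grown from a single sorted cell, and the edit it carries shifts the reading frame into an early stop codon. Another clone, E6.2, was also cut in exon 6, and clones E7.1 and E7.2 were cut in exon 7. Cells for the clones were electroporated with a plasmid carrying Cas9 and the guide, sorted and grown from single cells. The study describes none of these steps for the parental line, so they cannot be told apart from the edit. No other treatment is described for these lines. The libraries were chosen by their titles, which gave 3 of E6.1 and 3 of A20 parental cells, and all 13904 genes that passed a filter on low counts were tested, of 41388 genes in the files. E6.1 is 1 clone. A change of *Foxp1* and a change that arose in the founding cell or at another site therefore cannot be told apart from these 6 libraries alone.

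Foxp1 is a forkhead transcription factor that B-cell precursors need to mature and that is highly expressed in aggressive human B-cell lymphomas. Forkhead proteins bind DNA through a winged-helix domain, and Foxp1 can also repress its targets through partner proteins that it binds. The exon that was cut is shown because it is the designed site of the edit in E6.1. It lies on the minus strand of chromosome 6 at chr6:99016528-99016665 (GRCm38, GENCODE annotation), is 138 bases long, is the sixth exon of the transcripts with 19 exons and is held by 19 of the 31 annotated transcripts.

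Foxp1 exon 6: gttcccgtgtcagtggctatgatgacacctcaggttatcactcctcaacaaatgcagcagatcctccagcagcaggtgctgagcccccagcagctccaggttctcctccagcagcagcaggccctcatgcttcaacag

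*Foxp1* itself had 3381, 6212 and 5046 counts in the parental libraries and 3256, 3042 and 4343 counts in the E6.1 libraries. Its mean normalized level, in CPM, which are counts scaled to a library of fixed size, was 138 ± 32.7 (SD, n = 3) in parental cells and 104 ± 4.60 (SD, n = 3) in E6.1. The groups overlapped, and the log2 fold change of −0.41 (SE 0.20) did not pass the test (adjusted p = 0.765); it was −0.26 without parental replicate 2. The counts are per gene and do not read the edit, so they do not check the label of the clone. *Foxp4*, the other member of the 4-gene family that was tested, differed by −0.22 on the log2 scale (adjusted p = 0.969).

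The 6 libraries held 30194829 to 39181530 counts each. A count of 3 in an E6.1 library corresponded to 0.0751 to 0.0981 CPM and in a parental library to 0.0801 to 0.0907 CPM, which covers counting error only. Pearson's r between libraries, across genes on the log2 scale, was 0.982 to 0.994 within the parental line, 0.989 to 0.993 within E6.1 and 0.977 to 0.991 between the lines. Parental replicate 1 lay further from its line than the other parental libraries. The chi-square of its counts per degree of freedom was 187 and 201 against parental replicates 2 and 3, beside 38.5 between those, and without it 37 genes were called. In the other clones, 3 libraries stood apart, since their 10 most abundant genes held 20.4% (E6.2 replicate 1), 9.09% (E6.2 replicate 3) and 14.7% (E7.2 replicate 3) of all counts. They enter the estimate of the spread and the comparison with the other clones, and counts without them are given below. The 8 B-cell markers examined summed to 3068 to 3545 CPM in parental libraries and 3248 to 3581 CPM in E6.1 libraries, and 0 of them were called by edgeR's quasi-likelihood test, its likelihood ratio test or DESeq2, with 2 at an unadjusted p under 0.05. T-cell markers summed to 8 to 17 counts in parental and 6 to 16 counts in E6.1 libraries, with *Cd3e* and *Trac* at 0, and fibroblast markers to 6 to 10 and 5 to 10 counts, with *Col1a2* and *Lum* at 0. Macrophage markers summed to 264 to 627 and 274 to 390 counts, with *Cd14* at 0. B-cell transcripts were thus abundant in both lines, while 2 of 6 T-cell and 2 of 6 fibroblast markers were at 0 in all 6 libraries and the others were at few counts.

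In E6.1, 45 of the 13904 genes differed from parental cells at an adjusted p under 0.05 (0.324%), by the quasi-likelihood test of edgeR with p adjusted after Benjamini and Hochberg. Of these, 37 were lower (0.266%) and 8 higher (0.0575%). A run of neighbouring genes on chromosome 9 held 9 of the lower genes, and the other 36, of which 28 were lower and 8 higher, lay on 16 chromosomes. At an unadjusted p under 0.05, 933 genes differed (6.71%), 534 lower (3.84%) and 399 higher (2.87%). The 3 E6.1 libraries lay wholly above or below the 3 parental libraries for 3122 genes (22.5%), and the 45 called genes were all among them. Over all tested genes, the log2 fold change had a median of −0.00. Without the 3 libraries of other clones that stood apart, a fit of 12 libraries called 181 genes (133 lower and 48 higher), which included all 45, and a fit of the 6 compared libraries alone called 111, of which 43 were shared.

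Most large differences were not called. Of 588 genes with a log2 fold change of at least 1 in size, 38 were called and 550 were not, and of the 41 genes with one of at least 4 in size, 13 were called and 28 were not.

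**Figure D1:**
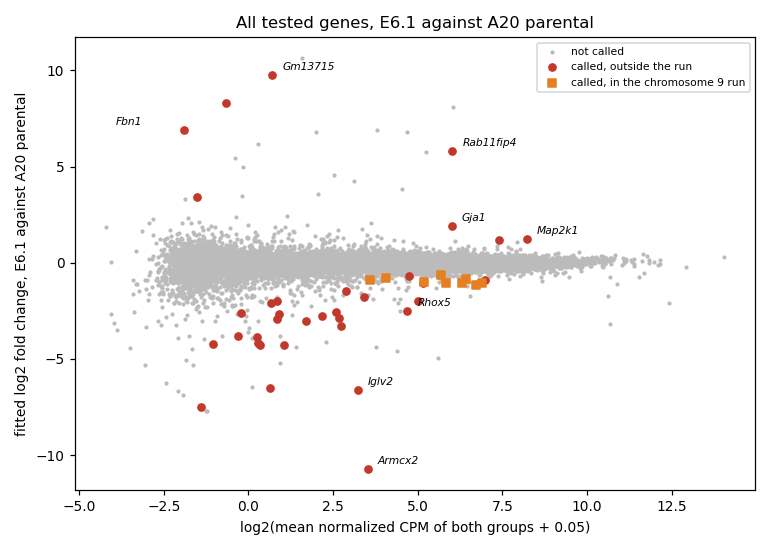
Fitted log2 fold change of E6.1 against A20 parental cells (y axis) for the tested genes, by log2 of the mean normalized CPM of both groups plus 0.05 (x axis). Each point is 1 gene, with called genes outside the chromosome 9 run in red circles and those in the run in orange squares; *Armcx2* is the lowest point at −10.73, and the squares lie together between −1.18 and −0.66.

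The gene with the strongest evidence of an increase was *Rab11fip4*, which encodes a Rab11-binding protein of recycling endosomes (chromosome 11, from 79591212 to 79698023). It was measured at 2.48, 2.22 and 2.13 CPM in the parental libraries and at 115, 136 and 130 CPM in the E6.1 libraries. Every E6.1 library was far above every parental library, with a log2 fold change of 5.80 (SE 0.30, adjusted p = 1.09e-07). The counts did not use strand, and *Rab11fip4* overlaps antisense transcripts, *Rab11fip4os1* and *Rab11fip4os2*, so reads where they overlap cannot be told apart. *Rab11fip4os1*, tested as a gene of its own, was at 7.83 CPM in parental cells and 7.72 CPM in E6.1 (log2 difference −0.02, adjusted p = 0.961). The mean level was 2.81 CPM in E6.2, 2.20 CPM in E7.1 and 1.91 CPM in E7.2, near that of parental cells. Rab11 and its partners return membrane proteins from endosomes to the cell surface. Of 17 tested genes of this route, which include the Rab11 GTPases, their binding proteins and the exocyst, *Rab11fip4* was the only one called. Over all tested genes 0.324% were called. This list and those below were chosen with earlier results of these data known, so such counts are no evidence that a call stands alone in its route. The exocyst subunit *Exoc5* differed by −0.40 at an unadjusted p under 0.05 (adjusted p = 0.467), and the median of the list was −0.08.

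*Map2k1*, which encodes the kinase MEK1 that activates ERK, was higher at an already high level. It was measured at 164, 186 and 179 CPM in parental libraries and 402, 412 and 445 CPM in E6.1 libraries. The groups were well apart, and the log2 fold change was 1.25 (SE 0.16, adjusted p = 0.00108). *Map2k1* lies on chromosome 9 from 64185770 to 64253631, outside the run of lower genes, and overlaps *Uchl4* on the opposite strand. The mean level in the other clones was 153 to 175 CPM. Of the 25 tested genes of the Ras-RAF-MEK-ERK cascade, 1 was called higher and 0 lower, with 3 higher and 2 lower at an unadjusted p under 0.05 and a median log2 fold change of −0.06, against 0.324% called and 6.71% at that p over all tested genes. The scaffold gene *Ksr1* was at 2.37 ± 0.505 CPM in parental cells and 1.08 ± 0.225 CPM in E6.1 (SD, n = 3), a log2 difference of −1.14 that did not pass (adjusted p = 0.673). Genes that ERK signalling is known to induce, such as dual-specificity phosphatases, Sprouty and Egr genes, did not yield a call among 17 tested by the quasi-likelihood test, the likelihood ratio test or DESeq2, with 1 at an unadjusted p under 0.05. That gene, *Egr3*, had a log2 difference of −1.21 (adjusted p = 0.661; −0.53 without parental replicate 2), and the median of the list was 0.18.

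*Gja1* encodes connexin 43, which forms gap junctions between cells. Its level was 35.0, 23.2 and 22.7 CPM in parental libraries and 93.4, 103 and 107 CPM in E6.1 libraries. All E6.1 libraries were higher, with a log2 fold change of 1.91 (SE 0.24, adjusted p = 0.00107). Of 22 connexin and pannexin genes in the files, 10 had 0 counts in all 6 libraries and 3 were tested, and *Gja1* was the 1 called. *Parp8*, a member of the ADP-ribosyltransferase family, was measured at 78.8, 120 and 112 CPM in parental and 218, 239 and 247 CPM in E6.1 libraries. The groups did not overlap (log2 fold change 1.18, SE 0.20, adjusted p = 0.0146), and the other 17 of 18 tested genes of this family list were not called. The call of *Parp8* held only without parental replicate 2 among the 6 fits that each left out 1 library, with adjusted p between 0.0504 and 0.0909 in the other 5.

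A further 4 genes rose from a level at or near 0. *Fbn1*, which encodes fibrillin-1 of extracellular microfibrils, had 0 counts in the 3 parental libraries and 15, 16 and 12 counts in the E6.1 libraries. That is at least 5.03-fold higher when set against a floor of 3 counts per library (adjusted p = 0.0367). The other clones held a mean of 0.0101 to 0.0189 CPM of it, below the level that 3 counts give. No other gene was called among 5 tested elastic fibre and microfibril genes. Its promoter is shown because the gene was silent in the parental line, with CpG dinucleotides in capitals. These are the 250 bases before its RefSeq start on the minus strand at chr2:125506439-125506688 (GRCm38.p6), and they hold 13 CpG. They lie inside the gene as it was counted, which runs to 125507993.

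Fbn1 promoter: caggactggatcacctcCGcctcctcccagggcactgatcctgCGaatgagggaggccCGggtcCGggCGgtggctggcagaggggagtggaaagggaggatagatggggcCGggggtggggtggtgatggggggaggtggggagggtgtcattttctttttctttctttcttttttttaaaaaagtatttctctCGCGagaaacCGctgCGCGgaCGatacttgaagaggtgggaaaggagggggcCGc

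The long non-coding RNA *Gm13715* (chromosome 2, from 85233675 to 85243678) had 0 counts in every parental library and 112, 76 and 135 counts in E6.1, at least 36.5-fold higher (adjusted p = 0.00824). *Gm21850*, annotated as an unprocessed pseudogene (chromosome 2, from 154052269 to 154056639), had 0 counts in parental libraries and 35, 25 and 61 in E6.1, at least 13.4-fold higher (adjusted p = 0.0405). Both were at 0 CPM in the other 3 clones too, so E6.1 was the only line of the 5 with reads on them. A pseudogene can take reads from its parent gene or its copies, and its counts are uncertain for that reason. *Apoc2*, the cofactor of lipoprotein lipase, had 2, 1 and 2 counts in parental libraries and 12, 30 and 12 in E6.1 libraries (adjusted p = 0.0274), a ratio of 11.1 with a 95% counting interval of 4.47 to 35.5. It overlaps *Apoc4* on the same strand. *Fbn1* and *Gm21850* were not called in any of the 6 fits that each left out 1 library (adjusted p from 0.107 to 0.198 and from 0.130 to 0.245). *Gm13715* was not called without any one of the E6.1 replicates (adjusted p from 0.0537 to 0.0692), and *Apoc2* was called only without E6.1 replicate 3 (adjusted p from 0.0584 to 0.218 in the other 5 fits).

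Among the lower genes, *Armcx2* changed the most. It is an X-linked armadillo-repeat gene whose relatives are placed on mitochondria (chromosome X, from 134804145 to 134809221). It had 787, 786 and 820 counts in the parental libraries and 0, 1 and 0 counts in the E6.1 libraries. E6.1 was thus without detectable *Armcx2* in 2 of its 3 libraries, and the ratio of parental to E6.1 level was 2329, with a 95% counting interval of 418 to 92029 (adjusted p = 3.63e-09). The mean level was 22.9 ± 1.65 CPM (SD, n = 3) in parental cells, 20.5 CPM in E6.2, 7.57 CPM in E7.1 and 13.1 CPM in E7.2. Of 20 Armcx, Bex, Tceal and Gprasp genes in the files, which are small related families that lie in part beside it on the X chromosome, 7 were tested and only *Armcx2* was called. *Tceal9* differed by −0.48 at an unadjusted p under 0.05 (adjusted p = 0.731). The 250 bases before the start of *Armcx2*, on the minus strand at chrX:134809222-134809471, hold 4 CpG and are shown for the gene with the largest fall.

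Armcx2 promoter: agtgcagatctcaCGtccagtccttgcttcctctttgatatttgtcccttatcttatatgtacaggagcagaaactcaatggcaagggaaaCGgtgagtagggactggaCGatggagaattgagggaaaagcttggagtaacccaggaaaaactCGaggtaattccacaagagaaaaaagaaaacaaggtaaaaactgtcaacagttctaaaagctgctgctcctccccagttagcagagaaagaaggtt

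Several lower genes encode receptors or an antigen receptor chain. *Iglv2*, a variable segment of the immunoglobulin lambda light chain, had 668, 606 and 662 counts in parental libraries and 9, 5 and 5 counts in E6.1 libraries (log2 fold change −6.59, SE 0.64, adjusted p = 0.000106). *Lpar5*, a receptor for lysophosphatidic acid, fell from 34, 27 and 25 counts to 1, 3 and 0 counts, a ratio of 20.9 with a 95% counting interval of 7.88 to 78.5 (adjusted p = 0.00300). *Lgr6*, a receptor for R-spondins, which potentiate Wnt signalling, was measured at 1.63, 1.23 and 1.31 CPM in parental libraries and 0.222, 0.196 and 0.250 CPM in E6.1 libraries (log2 fold change −2.62, adjusted p = 0.0108). None of the parental and E6.1 libraries overlapped for these 3 genes. Of 8 tested lysophospholipid receptors, *Lpar5* was the 1 called. Of 7 tested genes of the R-spondin receptor and Wnt target list, *Lgr6* was called and 3, *Lgr6* among them, were lower at an unadjusted p under 0.05. Over all tested genes 0.266% were called lower and 3.84% were lower at that p. The median log2 fold change of the list, which was chosen with earlier results known, was −0.35. Apart from *Lgr6*, the lower ones were *Lef1*, a nuclear partner of beta-catenin, with a log2 difference of −1.34 (adjusted p = 0.249), and *Rnf43*, with −0.35 (adjusted p = 0.576). *AB124611* fell from 62, 89 and 91 counts to 0, 3 and 9 counts (adjusted p = 0.00766). *Cacng7*, which encodes an accessory subunit of glutamate receptors, fell from 1.72, 3.12 and 2.68 CPM to 0.349, 0.621 and 0.776 CPM (adjusted p = 0.0156). *Lgr6* was called in none of the 6 fits that left out 1 library (adjusted p from 0.0537 to 0.130). *AB124611* was not called without E6.1 replicate 2 (adjusted p = 0.0733), and *Cacng7* was not called without parental replicate 2 or 3 or E6.1 replicate 1 or 2 (adjusted p from 0.0736 to 0.110).

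Genes known from the germ line formed another part of the lower genes. *Meioc*, which germ cells need to stay in meiotic prophase, fell from 109, 150 and 149 counts to 7, 5 and 8 counts (log2 fold change −4.29, SE 0.45, adjusted p = 0.000227). *Rhox5*, an X-linked homeobox gene of the testis and placenta, fell from 44.0, 39.9 and 47.8 CPM to 6.03, 8.67 and 8.68 CPM (log2 fold change −2.49, SE 0.21, adjusted p = 2.87e-05). *Aldoart2*, a testis-specific retrogene of aldolase A, had 12, 25 and 33 counts in parental libraries and 0 in each E6.1 library, at least 7.42-fold lower (adjusted p = 0.00958). Each of these was lower in every E6.1 library than in any parental library. *Spaca6*, which sperm need to fuse with the egg, fell from 4.90, 2.70 and 1.72 CPM to 0.412, 0.360 and 0.425 CPM (adjusted p = 0.0146). *Cfap300*, a gene of cilia and flagella that was not in the list, fell from 9.56, 9.37 and 11.8 CPM to 1.81, 1.54 and 1.85 CPM (log2 fold change −2.56, adjusted p = 2.87e-05). Of 39 germline genes listed, 15 were tested, 4 of these were called lower and 7 were lower at an unadjusted p under 0.05, with 0 higher and a median log2 fold change of −0.57, against 0.266% called lower and 3.84% lower at that p over all tested genes. This list was chosen with the lower calls known, so its count is not independent evidence of a direction. Among the members not called, *Spo11*, which makes the breaks of meiotic recombination, was at 0.272 ± 0.133 CPM in parental cells and at 0 in each E6.1 library (adjusted p = 0.384), and *Sycp1*, of the synaptonemal complex, was at 9.60 ± 4.41 and 4.98 ± 0.198 CPM (SD, n = 3, adjusted p = 0.673). *Aldoart2* was not called without any one E6.1 replicate (adjusted p from 0.0504 to 0.0589). *Spaca6* was not called without parental replicate 1 or without any one E6.1 replicate (adjusted p from 0.0959 to 0.113). The promoter of *Meioc* holds 22 CpG in the 250 bases before its RefSeq start, on the plus strand at chr11:102665335-102665584, and is shown beside the other 2 for that density. This window lies inside the gene as it was counted, which starts at 102663716.

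Meioc promoter: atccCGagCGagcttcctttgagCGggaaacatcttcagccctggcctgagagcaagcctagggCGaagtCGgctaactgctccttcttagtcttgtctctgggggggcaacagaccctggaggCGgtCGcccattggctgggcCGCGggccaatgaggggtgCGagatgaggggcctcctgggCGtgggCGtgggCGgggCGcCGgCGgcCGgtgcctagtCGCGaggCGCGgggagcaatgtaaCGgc

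Enzymes, transporters and channels made up a further group of lower genes. *Cyp2c55*, a cytochrome P450 that oxidizes fatty acids, fell from 2.72, 1.31 and 2.65 CPM to 0.0952, 0.196 and 0.0751 CPM (log2 fold change −4.18, adjusted p = 9.22e-05). *Mcoln3*, a cation channel of endosomes and lysosomes, fell from 8.04, 13.1 and 14.8 CPM to 1.33, 0.785 and 1.55 CPM (log2 fold change −3.28, adjusted p = 0.00167). *Aldh3b1*, an aldehyde dehydrogenase that clears products of lipid peroxidation, fell from 2.42, 3.04 and 4.02 CPM to 0.349, 0.327 and 0.801 CPM (adjusted p = 0.00932). In all 3 the groups did not overlap. *Abca5*, a lipid transporter of the ABC family, fell from 38.2, 55.3 and 61.3 CPM to 14.9, 11.5 and 12.6 CPM (log2 fold change −1.99, adjusted p = 0.0339). *Slc22a15*, a solute carrier, fell from 3.51, 2.24 and 2.59 CPM to 0.603, 0.621 and 0.826 CPM (adjusted p = 0.00720). *Phyhip*, which binds phytanoyl-CoA hydroxylase, had 114, 112 and 85 counts in parental libraries and 1, 0 and 2 in E6.1 libraries, a ratio of 101 with a 95% counting interval of 34.2 to 492 (adjusted p = 0.000280). Most related genes on the lists for these functions were not called. *Mcoln3* was the 1 gene called of 15 endolysosomal ion channels and *Aldh3b1* the 1 called of 12 tested aldehyde dehydrogenases. *Aldh1a2*, which makes retinoic acid, was at 1.94 ± 0.0643 CPM in parental cells and 0.127 ± 0.0303 CPM in E6.1 (SD, n = 3) without passing (adjusted p = 0.0757). Of 15 tested genes of lipid efflux and apolipoproteins, 1 was called lower (*Abca5*) and 1 higher (*Apoc2*). *Abca5* was called only without parental replicate 1 (adjusted p from 0.123 to 0.215 in the other 5 fits that left out 1 library), *Aldh3b1* was not called without parental replicate 3 or E6.1 replicate 1 or 2 (adjusted p from 0.0522 to 0.0855), and *Slc22a15* was not called without E6.1 replicate 1 or 2 (adjusted p = 0.0610 and 0.0615).

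Cytoskeletal and signalling genes were also among those lowered. *Sept8*, a septin, fell from 10.4, 6.94 and 6.23 CPM to 1.17, 1.31 and 0.926 CPM (log2 fold change −2.79, SE 0.26, adjusted p = 8.16e-05). *Krt222*, a keratin-like gene, fell from 1.36, 1.07 and 1.86 CPM to 0.0634, 0.0981 and 0.125 CPM (adjusted p = 0.000743). *Daam1*, a formin of the Wnt planar polarity pathway that assembles actin, fell from 44.1, 52.0 and 47.8 CPM to 20.6, 25.4 and 23.5 CPM (log2 fold change −1.05, SE 0.13, adjusted p = 0.00122). These groups lay apart in each case. *Arhgap5* fell from 32.6, 33.5 and 34.0 CPM to 22.7, 19.1 and 19.3 CPM, the smallest fall outside the chromosome 9 run (log2 fold change −0.71, adjusted p = 0.0223). *Ptpn14*, a tyrosine phosphatase that restrains the Hippo effector YAP, fell from 13.3, 18.2 and 17.2 CPM to 4.06, 5.72 and 4.63 CPM (log2 fold change −1.75, adjusted p = 0.0132). *Pdzph1*, which encodes PDZ and pleckstrin homology domains, fell from 11.9, 10.4 and 11.2 CPM to 1.17, 1.24 and 2.10 CPM (adjusted p = 0.000343). *Uhrf1bp1l*, a gene of endosomal traffic, fell from 176, 162 and 154 CPM to 81.4, 90.6 and 91.4 CPM (log2 fold change −0.90, adjusted p = 0.00650). Of 9 tested septins and 14 tested Hippo pathway genes 1 each was called. In the Hippo list, the kinase gene *Stk3* differed by −0.38 (adjusted p = 0.539). *Arhgap5* was called in none of the 6 fits that left out 1 library (adjusted p from 0.0504 to 0.215), *Ptpn14* was not called without parental replicate 2 or 3 or E6.1 replicate 1 or 3 (adjusted p from 0.0635 to 0.110), and *Uhrf1bp1l* was not called without E6.1 replicate 1 (adjusted p = 0.0633).

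Genes with little or no annotated function complete the set. *Gm10863*, a processed transcript, fell from 5.26, 5.50 and 6.38 CPM to 0.793, 0.720 and 0.550 CPM (adjusted p = 0.000168). *Gm15128* on the X chromosome fell from 2.66, 1.66 and 2.10 CPM to 0.0952, 0.131 and 0.200 CPM (adjusted p = 0.00197). *A230056P14Rik* fell from 10.4, 10.97 and 11.1 CPM to 4.35, 3.40 and 3.93 CPM (adjusted p = 0.00221). The last one overlaps *Nipa1*, a magnesium transporter gene on the opposite strand, which had a log2 difference of −1.29 (adjusted p = 0.0653), and reads of this pair cannot be told apart without strand. In RNA from bulk cells, a lower level in every cell and a smaller number of cells with the transcript cannot be told apart for any of the genes above.

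**Figure D2:**
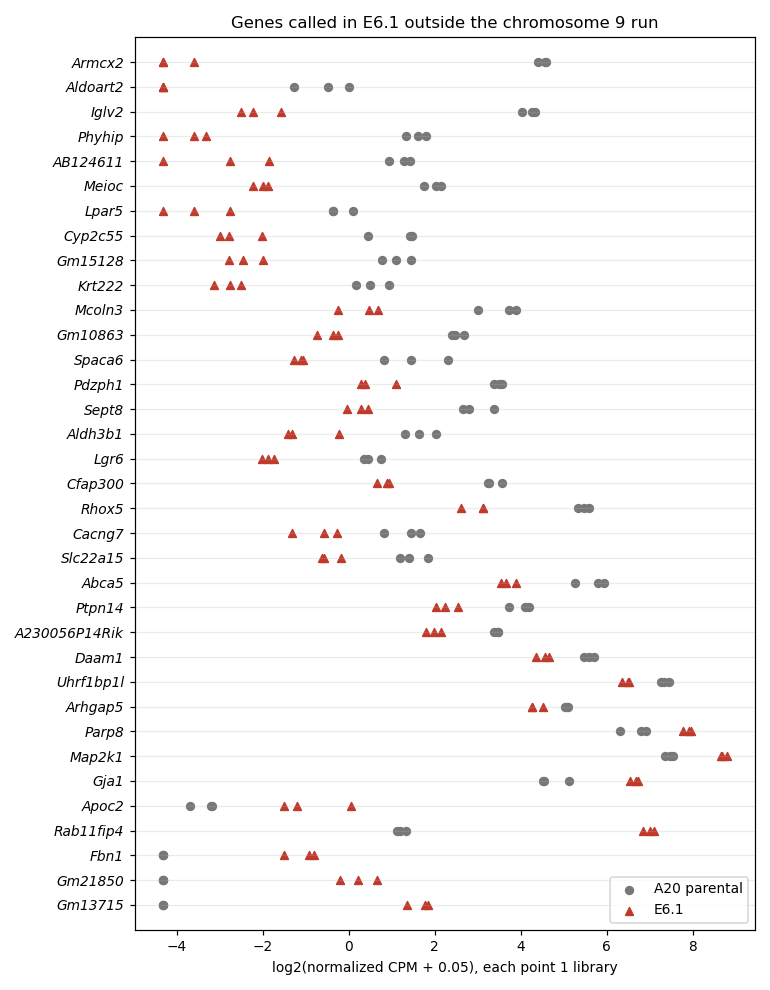
Level of 35 genes called in E6.1 outside the chromosome 9 run, as log2 of normalized CPM plus 0.05 (x axis), with genes ordered by fold change (y axis). Each grey circle is 1 A20 parental library and each red triangle 1 E6.1 library, and for every gene the 3 triangles lie on one side of the 3 circles; *Fbn1*, *Gm21850* and *Gm13715* have circles at 0 CPM.

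The contrast of E6.1 with the mean of the other 3 clones compares E6.1 with the average of cells that also carry a *Foxp1* edit, with no parental library in the contrast, although these enter the same fit. A difference from that mean is not a difference from each clone. It called 95 genes (0.683%), 44 lower and 51 higher, of which 31 were also called in the same direction against parental cells. Those were the 9 genes of the chromosome 9 run, 16 lower genes elsewhere and 6 higher genes. *Rab11fip4* was higher than in the other clones by 5.80 on the log2 scale (adjusted p = 3.91e-10), *Map2k1* by 1.36 (adjusted p = 2.04e-05) and *Gja1* by 1.18 (adjusted p = 0.00319). *Armcx2* was lower by a log2 difference of −9.88 (adjusted p = 3.74e-09), *Lpar5* of −4.95 (adjusted p = 0.000301), *Cyp2c55* of −4.54 (adjusted p = 1.42e-05), *Krt222* of −4.50 (adjusted p = 5.12e-05), *Pdzph1* of −3.17 (adjusted p = 4.12e-05) and *Cfap300* of −2.34 (adjusted p = 1.42e-05). Set against parental cells, the other clones had log2 fold changes between −0.26 and 0.30 for *Rab11fip4*, between −0.20 and −0.01 for *Map2k1*, between 0.07 and 1.30 for *Gja1* and between −1.60 and −0.16 for *Armcx2*. Of the 31 genes, 8 were also called in the same direction against parental cells in at least 1 other clone. In E6.2 these were *Aldoart2* (log2 fold change −4.22), *AB124611* (−3.53), *Sept8* (−1.46) and *A230056P14Rik* (−1.45), in E7.1 *Ptpn14* (−1.98) and *Armcx2* (−1.60), and in E7.2 *Mcoln3* (−3.26), *A230056P14Rik* (−1.61) and *Gja1* (1.30), with adjusted p from 0.00161 to 0.0293. The level of *Mcoln3* was 1.22 CPM in E6.1 and 1.25 CPM in E7.2, that of *Ptpn14* 4.80 CPM in E6.1 and 4.11 CPM in E7.1, and that of *A230056P14Rik* 3.89 CPM in E6.1, 3.97 CPM in E6.2 and 3.53 CPM in E7.2. In the opposite direction, *A230056P14Rik* was called in E7.1 (1.15, adjusted p = 0.0163) and *Krt222* in E6.2 (1.61, adjusted p = 0.0491). The count of 95 was 50, 61 and 53 without E6.1 replicate 1, 2 and 3, and 153 in the fit without the 3 libraries that stood apart.

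The other 14 genes called against parental cells were not called against the other clones. *Iglv2* was at 0.191 CPM in E6.1 and at 0.340 CPM in E6.2, 0.130 CPM in E7.1 and 0.319 CPM in E7.2 (log2 difference −0.32, adjusted p = 0.859). *Meioc* was at 0.195 CPM in E6.1 and at 0.312, 0.262 and 0.147 CPM in these clones in the same order (log2 difference −0.23, adjusted p = 0.850). *Spaca6* and *Lgr6* were low in the other clones too, at 0.487 to 0.642 CPM and 0.0977 to 0.263 CPM. The comparisons of the clones with the parental line share its 3 libraries, so falls against it in several clones are not independent of each other. The level of each clone was counted in its own libraries. *Rhox5* differed among the clones, with 3.60 CPM in E6.2, 42.0 CPM in E7.1 and 12.6 CPM in E7.2 beside 7.79 CPM in E6.1. *Daam1* was at 23.1 CPM in E6.1, 19.1 CPM in E6.2, 23.0 CPM in E7.1 and 60.8 CPM in E7.2. *Gm15128* was at 6.03 CPM in E6.2, at 0 in E7.1 and at 0.0353 CPM in E7.2, so its order between the lines did not follow the edited exon. For *Parp8* the other clones lay at 165 to 230 CPM, between parental cells and E6.1, and its difference from them did not pass (adjusted p = 0.442).

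**Figure D3:**
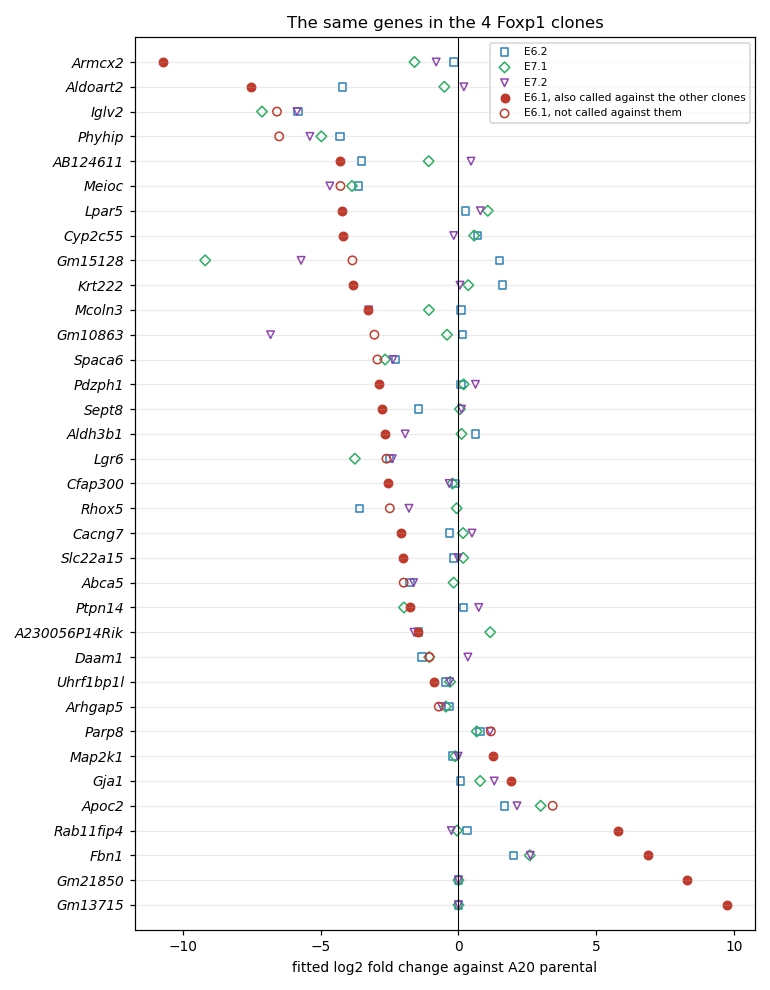
Fitted log2 fold change against A20 parental cells (x axis) of the 35 genes called in E6.1 outside the chromosome 9 run (y axis) in each of the 4 clones. Filled red circles are genes that also differ between E6.1 and the mean of the other clones, open red circles genes that do not, and the other symbols are E6.2, E7.1 and E7.2; *Rab11fip4* stands at 5.80 in E6.1 and between −0.26 and 0.30 in the others, while *Iglv2* and *Meioc* lie left of 0 in every clone.

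The chromosome 9 run was given with the choice of these libraries and was known from earlier results of these data, so its genes are described without a test of the run itself. It holds 25 genes of the files, of which 14 were tested, 13 had a log2 fold change below 0, 11 were lower at an unadjusted p under 0.05 and 9 were called lower. The first called gene starts at 113651744 and the last ends at 114933987. The median log2 fold change was −0.87, or 54.8% of the parental level, and the median over the 3 E6.1 libraries taken one at a time was −0.80, −0.88 and −0.93. The called genes of the run encode proteins of different kinds. *Pdcd6ip* encodes ALIX, which links the ESCRT machinery to membrane budding, and fell from 152, 140 and 143 CPM to 57.8, 72.2 and 62.4 CPM (log2 fold change −1.18, adjusted p = 0.00183). *Clasp2*, a stabilizer of microtubule plus ends, fell from 181, 160 and 145 CPM to 79.8, 77.3 and 73.0 CPM (log2 fold change −1.08, adjusted p = 0.000487). *Cmtm6*, which keeps PD-L1 at the cell surface, fell from 65.6, 83.1 and 81.2 CPM to 35.7, 36.2 and 39.4 CPM (log2 fold change −1.05, adjusted p = 0.00184). The E6.1 libraries lay below the parental ones for each. *Gpd1l*, a glycerol-3-phosphate dehydrogenase, was at 47.9% of the parental level, *Dync1li1*, a light intermediate chain of cytoplasmic dynein, at 50.8%, and *Tmppe*, a metallophosphoesterase, at 54.0%. *Ubp1*, a transcription factor, was at 55.7%, *Crtap*, a partner of collagen prolyl hydroxylase, at 57.1%, and *Cnot10*, a subunit of the CCR4-NOT deadenylase, at 63.4%. *Cmtm7*, which lies in the run and is a relative of *Cmtm6*, differed by −0.60 and was not called (adjusted p = 0.0982). *Rps27rt*, at one end, was the exception, with 12.8 ± 4.15 CPM in parental cells and 19.3 ± 5.71 CPM in E6.1 (SD, n = 3), a log2 difference of 0.58 (adjusted p = 0.943).

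The tested genes on either side of the run were near the parental level. The nearest one before it, *Epm2aip1*, ends at 111279097, far from the start of *Pdcd6ip*, and the nearest one after it, *Stt3b*, starts at 115242607, so where the lower level begins and ends was not measured. The 12 tested genes before it had a median log2 fold change of −0.04 and the 12 after it one of −0.05, with 0 called on either side by the quasi-likelihood test, the likelihood ratio test or DESeq2 and 0 at an unadjusted p under 0.05. The medians of the run for E6.2, E7.1 and E7.2 were 0.04, −0.00 and 0.02 in that order. Against the mean of those clones, 10 of its genes were called lower in E6.1. Without E6.1 replicate 2 or 3 the count against parental cells was 5. *Tmppe*, *Ubp1* and *Cnot10* were each called in only 1 of the 6 fits that left out 1 library (adjusted p from 0.0801 to 0.256, 0.0899 to 0.152 and 0.179 to 0.234 in the others), and *Crtap* was not called without parental replicate 3 or E6.1 replicate 2 or 3 (adjusted p from 0.0589 to 0.0854). The number of copies of this stretch in the genome of E6.1 was not tested.

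**Figure D4:**
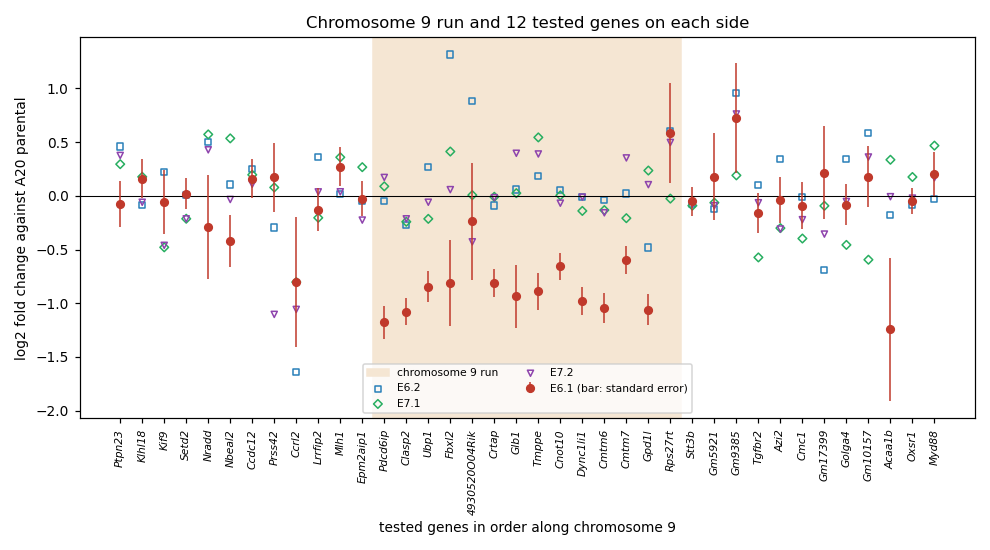
Log2 fold change against A20 parental cells (y axis) of the 14 tested genes of the chromosome 9 run (shaded) and the 12 tested genes on each side, in their order along the chromosome (x axis). Red circles with bars are E6.1 with its standard error and open symbols are E6.2, E7.1 and E7.2; in the shaded part 13 of 14 red circles lie below 0, with a median of −0.87, while the medians of the other clones are 0.04, −0.00 and 0.02.

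The genes next to those called outside the run were not called themselves. Of the 72 nearest tested genes on either side of the 36, 0 were called by the quasi-likelihood test, 2 by the likelihood ratio test and 2 by DESeq2, and 6 (8.33%) had an unadjusted p under 0.05, against 6.71% of all tested genes. Their median absolute log2 fold change was 0.192, against 0.181 over all tested genes. The 6 were *Nipa1* beside *A230056P14Rik*, *Ralgapa1* beside *Aldoart2* (log2 difference −0.37), *Bpifb4* beside *Gm21850* (−2.90), *Nudt12os* beside *Pdzph1* (−5.33, with 0 in each E6.1 library), *Lnpep* beside *Spaca6* (−0.42) and *Gm26180* beside *Uhrf1bp1l* (−1.23). *Bpifb4* had the opposite direction to its neighbour. In windows of 11 consecutive tested genes, 95% of the 13673 medians lay between −0.26 and 0.21 on the log2 scale. The window from *Pdcd6ip* to *Cmtm6* in the chromosome 9 run had a median of −0.89 and held 8 called genes. The lowest window, −1.04, lay on chromosome 13 from 49493615 to 51203065 and ended at *Hist1h2al*, with only 6 of its 11 genes below 0. A window of mitochondrial genes from *mt-Co2* to *mt-Tl2* was at −0.78, with all 11 below 0. The highest, from *Gm15610* to *Gm8897* on chromosome 5, was at 0.85. These 3 held 0 called genes.

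Forkhead proteins share a core motif that was searched in the promoters of the called genes. The sequence TGTTTAC, searched on both strands as TGTTTAC and GTAAACA in the 250 bases before each start, was found in 0 of 45 windows from the 36 called genes that matched a RefSeq promoter, and in 3.17% of all 32851 windows. Outside the chromosome 9 run, 28 genes had 34 windows, with a median of 5.5 CpG beside 6 over all windows. The 3 promoters printed above have 4, 13 and 22 CpG, beside a 25th percentile of 2 and a 75th percentile of 16 over all windows. That of *Meioc* was printed for its density, so these 3 do not describe the called genes as a set.

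The study asked how loss of Foxp1 affects MHC class II, the molecules that present antigen to helper T cells. By flow cytometry it reported more MHC class II protein on the surface of all the clones characterized. The paper did not find these genes among its shared RNA changes and proposes regulation after transcription. The levels given here are of RNA and do not measure surface protein. None of the 11 tested MHC class II genes was called in E6.1, by the quasi-likelihood test, the likelihood ratio test or DESeq2, with 0 also at an unadjusted p under 0.05. Their summed level was 3306 to 3851 CPM in parental libraries and 3606 to 3974 CPM in E6.1 libraries, which overlapped, and the median log2 fold change was −0.07. The lowest were *H2-Ob* (log2 difference −0.48, adjusted p = 0.821), *H2-DMb1* (−0.28, adjusted p = 0.972) and *H2-DMa* (−0.26, adjusted p = 0.890), which load or regulate the loading of peptides. Among B-cell markers, *Ms4a1*, which encodes CD20, was at 658 ± 86.2 CPM in parental cells and 460 ± 42.9 CPM in E6.1, and the transcription factor gene *Ebf1* at 23.3 ± 0.716 and 16.2 ± 1.20 CPM (SD, n = 3). Both had a log2 difference of −0.52 and an unadjusted p under 0.05 and were not called (adjusted p = 0.493 and 0.471). The macrophage marker *Adgre1* differed by −1.69 (adjusted p = 0.539), and by −0.74 without parental replicate 1.

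In the lists that hold genes of the chromosome 9 run, the called members were those of the run. Of 25 tested ESCRT genes only *Pdcd6ip* was called, and of 30 tested genes of cytoplasmic dynein and microtubule plus ends only *Dync1li1* and *Clasp2*. In the latter list, the dynein light chain gene *Dynlt1b* differed by 0.46 (adjusted p = 0.714). Of 5 tested genes of the list with PD-L1, PD-L2 and the CMTM family only *Cmtm6* was called. Of the 24 lists by function or cell type, 7 held 0 called genes, 14 held 1, 2 held 2 and the germline list held 4. Over all tested genes 0.324% were called. The lists were chosen with earlier results of these data known, so these counts do not show how calls are spread over functions. In 19 of them the median log2 fold change lay within 0.3 of 0, beside −0.00 for all tested genes.

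**Figure D5:**
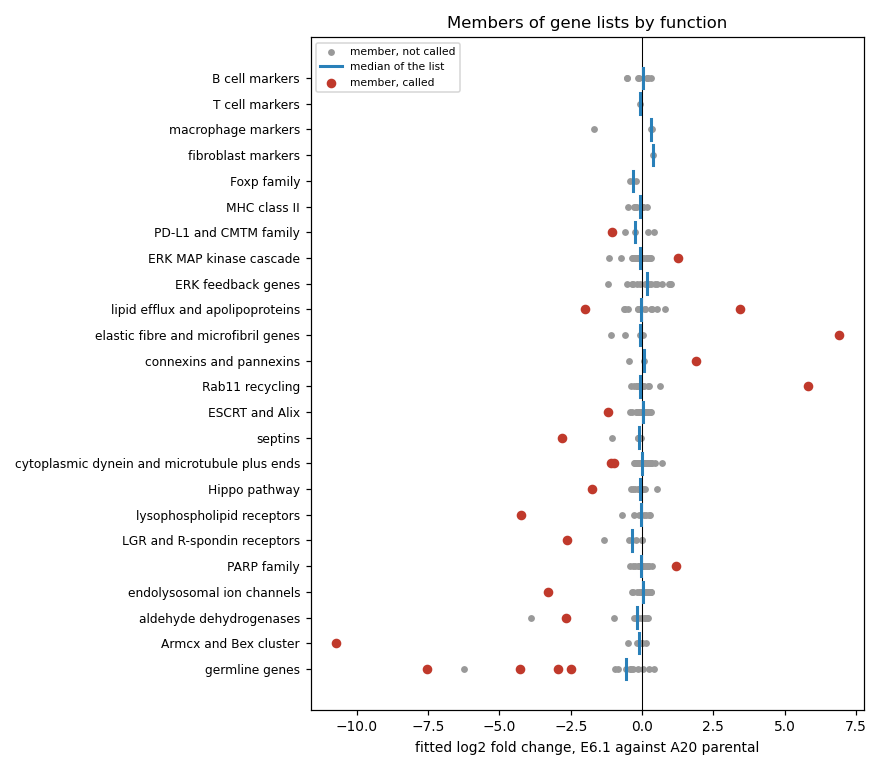
Fitted log2 fold change of E6.1 against A20 parental cells (x axis) for the tested members of 24 gene lists (y axis). Each grey point is a member that was not called, each red point a called member and each blue line the median of the list. The lists were chosen with earlier results of these data known. In most lists 1 red point stands away from a median near 0, and the germline list has 4 red points and a median of −0.57.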

How the data were processed

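Total RNA was sequenced from 15 libraries. The authors deposited counts, the number of read pairs per gene, for each library. Per the file headers and the labels, reads were aligned with HISAT to GRCm38 and counted with featureCounts 1.5.0 without regard to strand, and overlapping genes and close paralogs are therefore uncertain. Among 41480 features, the 92 spike-ins had no counts and were left out. Symbols were matched for 40254 of 41388 genes.

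The analysis used edgeR 4.0.16 in R 4.3.3. After filterByExpr and TMM normalization, genes were tested with glmQLFit and glmQLFTest in 1 fit to all 15 libraries, with line as its sole factor. Benjamini-Hochberg adjustment covered all 13904 tested genes, and calls were made below an adjusted p of 0.05. Levels are TMM-normalized CPM. A contrast of E6.1 with the mean of the other clones used the same fit. The study describes biological triplicates from separate passages. The p values measure the spread between cultures within a line, estimated over all 15 libraries, those of the other clones included. E6.1 is 1 clone, so they do not measure a spread between clones. No 2 libraries were copies.

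On simulated data for this comparison with 13904 genes, the test recovered 58 of 100 genes changed 2-fold and 85 of 100 changed 4-fold, and called 7 unchanged genes. The changed genes were drawn only from those above a minimum mean count. Recovery was therefore not measured for genes at few counts, such as *Fbn1*. Genes named were *Foxp1*, all called genes, from each of 24 gene lists the called members and up to 3 others with the largest differences, and neighbours of called genes at an unadjusted p under 0.05. Outside the MHC class II list, those others were named only at an unadjusted p under 0.05. Other genes, such as the ends of windows and *Foxp4*, *Rps27rt* and markers at 0, were named after their values were seen. The libraries, lists and promoter set were chosen with earlier results of these data known, and some results that the rule would include are not reported here. Alternatives were DESeq2 1.42.0, its size factors, other filters, edgeR's likelihood ratio test and its newer quasi-likelihood method, a replicate block, an added 2-fold threshold, the 6 libraries alone, and each library left out in turn. A fit of 12 libraries was added after seeing the data.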

Additional observations from a re-analysis of the deposited data

Results flagged for a closer look

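Genes named in the report were marked for a closer look where E6.1 differed from the mean of E6.2, E7.1 and E7.2 by the test of that difference, at an adjusted p under 0.05 from edgeR's quasi-likelihood test. The log2 differences of E6.1 minus that mean are given in parentheses. Among genes outside the chromosome 9 run, 16 were lower, namely *Armcx2* (−9.88), *Aldoart2* (−6.01), *Lpar5* (−4.95), *Cyp2c55* (−4.54), *Krt222* (−4.50), *Pdzph1* (−3.17), *AB124611* (−2.92), *Sept8* (−2.36), *Cfap300* (−2.34), *Aldh3b1* (−2.25), *Cacng7* (−2.21), *Slc22a15* (−2.01), *Mcoln3* (−1.87), *Ptpn14* (−1.41), *A230056P14Rik* (−0.84) and *Uhrf1bp1l* (−0.54). In the run, 10 genes were lower, namely *Tmppe* (−1.26), *Pdcd6ip* (−1.25), *Gpd1l* (−1.01), *Cmtm6* (−0.94), *Dync1li1* (−0.92), *Ubp1* (−0.84), *Clasp2* (−0.83), *Crtap* (−0.77), *Cnot10* (−0.65) and *Cmtm7* (−0.65). Of these, *Cmtm7* was not called against parental cells. The 6 higher genes were *Gja1* (1.18), *Map2k1* (1.36), *Fbn1* (4.50), *Rab11fip4* (5.80), *Gm21850* (8.31) and *Gm13715* (9.75). The values of *Gm21850* and *Gm13715*, which had 0 counts in the other clones, and of *Aldoart2*, which had 0 counts in E6.1, depend on the prior count of the fit and are not bounds. A difference from the mean is not a difference from each clone, and 8 of these genes (*Armcx2*, *Aldoart2*, *AB124611*, *Sept8*, *Mcoln3*, *Ptpn14*, *A230056P14Rik* and *Gja1*) were also called in the same direction against parental cells in at least 1 other clone. Copy number, clonal origin and editing at other sites were not tested for any of them.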

How the results depend on the processing

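The number of genes called in E6.1 against parental cells, 45, was 47 with DESeq2's size factors, 44 with a stricter filter, 54 with the newer quasi-likelihood method and 38 with an added 2-fold threshold. It moved by more than 1.5 times with no filter (74), with the likelihood ratio test (125), with DESeq2's Wald test (155), in the fit of the 6 libraries compared (111) and in the fit of 12 libraries that left out E6.2 replicates 1 and 3 and E7.2 replicate 3 (181, chosen after seeing the data). It ranged from 28 to 37 when 1 library was left out, with 28 without E6.1 replicate 1 and 29 without E6.1 replicate 2. The number called against the other clones, 95, was 219 with the likelihood ratio test, 289 with DESeq2, 153 in the fit of 12 libraries and 50 to 116 when 1 library was left out. The number called in the chromosome 9 run, 9, was 4 with the added 2-fold threshold and 5 to 8 when 1 library was left out, while the median of the run stayed between −0.90 and −0.84 in those fits. In all 6 of those fits and in 9 other fits, 25 of the 45 genes were called, 20 of them outside the run. Of the named genes, the direction reversed only for *H2-DMb1*, whose log2 fold change ranged from −0.52 to 0.034 when 1 library was left out and which was called in no fit. The causes of these moves were not tested, except that the likelihood ratio test and DESeq2 use another model of the spread, the fits without a library use fewer samples and the added threshold removes genes by construction.

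The replicate numbers did not pair the libraries, since the deviations of same-numbered parental and E6.1 libraries from their line means correlated across genes with r of −0.147, −0.123 and 0.187. With the replicate number as a block, 40 genes were called against parental cells, of which 39 were among the 45, and 83 against the other clones. The 6 not called were *Arhgap5*, *Gm13715*, *Gm21850*, *Fbn1*, *Tmppe* and *Cnot10* (adjusted p from 0.0668 to 0.158). With the block, 7 were called in the run and the median of the run was −0.86. Of the E6.1 libraries, only replicate 3 correlated best with the parental library of its own number.

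Depth limits the low genes: 6 of the called genes outside the run had a mean parental level under 1 CPM, and 4 were under 1 CPM in both lines.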

Other observations

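A further 27 genes had an adjusted p between 0.05 and 0.1 in E6.1 against parental cells, 19 lower and 8 higher, and are described here after their values were seen. In the fit of 12 libraries 25 of them were called, in the fit of the 6 libraries alone 19, and in both 19. The adjusted p from the fits of 15, 12 and 6 libraries are given in that order. *Robo1*, a receptor for Slit ligands, was at 0.0275 CPM in parental cells and 2.30 CPM in E6.1 (adjusted p = 0.0652, 9.38e-05 and 0.00605), *Itga6*, the integrin alpha 6 chain, at 12.9 and 5.37 CPM (adjusted p = 0.0757, 0.0327 and 0.0517), and *Nedd9*, an adaptor of integrin signalling, at 0.821 and 0.0949 CPM (adjusted p = 0.0808, 0.0407 and 0.0247). *Adgrl2*, an adhesion receptor, was at 4.48 and 1.43 CPM (adjusted p = 0.0757, 0.0178 and 0.0791).

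Also in this range was *Cr2*, which encodes complement receptor 2 of mature B cells, at 54.1 CPM in parental cells and 34.7 CPM in E6.1 (log2 difference −0.64, adjusted p = 0.0828, 0.0426 and 0.0221). *Nfix*, a nuclear factor I gene, was at 5.05 and 2.51 CPM (adjusted p = 0.0590, 0.0171 and 0.0627), and *Sap30*, of the Sin3 deacetylase complex, at 64.0 and 106 CPM (adjusted p = 0.0590, 0.00155 and 0.0136). *Ptprg*, a receptor tyrosine phosphatase, was at 0.755 CPM in parental cells and at 0 in each E6.1 library (adjusted p = 0.0590, 0.0185 and 0.0211). None of these passed in the fit of 15 libraries, and *Itga6*, *Adgrl2* and *Nfix* did not in the fit of 6.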
